A study of Mus musculus with 12 samples.

Results

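The cytosolic ribosomal protein genes were described on 12 microarrays of mouse skin cells, as the genes whose array name is Rpl or Rps followed by a number (with a single a, x, l or y allowed at the end), plus Rplp0, Rplp1, Rplp2 and Rpsa. The rule took in 80 of 34763 gene names and 185 of 55681 probes. Of these genes 48 are named for the large ribosomal subunit and 32 for the small one. The choice used names only, and each gene was represented by its brightest probe over the arrays.

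Each array held 1 sample, and each of the 12 groups had 1 array. The 8 arrays of hair follicle stem cells (HFSCs) came from plucked and unplucked skin of 4 kinds of mice, and plucked cells were collected 3 days after depilation by hand. Aged mice were at least 22 months old and young mice 8 weeks old, and neither kind is labelled with tamoxifen. The cKO mice were 12 weeks old and lacked Col17a1, the gene of the transmembrane collagen XVII of hemidesmosomes, through a deletion driven from the K14 promoter of basal keratinocytes. The control mice were wild type and also 12 weeks old, and tamoxifen (2 mg daily for 5 days) was given to cKO and control mice alike. The labels give C57BL/6 for young, aged and control mice and no strain for the cKO mice. The other 4 arrays held sorted interfollicular epidermal cells (IFE) and total epidermal cells of aged and of young mice, unplucked. The HFSC gate was CD34 high, ITGA6 high and SCA1 negative, and the IFE gate ITGA6 high and SCA1 high. The labels do not say whether the samples came from separate animals. With 1 array per group, the p-values rest on how differences vary between pairs of arrays, not on replicates of a group. That spread may be technical only, and any difference in the plucking or age effect between groups is part of it.

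Values are log2 spot intensities after the scanner software's processing, relative to the 75th percentile of their array, and a change is a difference of such values. The share of spots well above background ran from 49.71% in unplucked cKO HFSCs to 64.97% in young total epidermis. The unplucked cKO HFSC array also had the most outlier spots, 269. The control and cKO HFSC arrays, both unplucked, had the lowest median correlations with the other arrays, 0.888 and 0.893, against 0.907 to 0.930 on the remaining 10. All 7 HFSC markers looked at were well above background on every HFSC array, and their summed level (log2) was 7.90 to 8.98 there, against 6.15 to 6.40 in IFE and total epidermis. All 7 were also well above background in total epidermis, and 3 or 4 of them in IFE. The summed level of 5 markers of IFE and upper follicle overlapped, with 5.01 to 6.94 in HFSCs and 6.37 to 7.24 in IFE and total epidermis. The summed level of 6 fibroblast markers was 1.05 to 1.30 in plucked HFSCs and 2.10 to 3.20 in unplucked HFSCs, with 2 to 4 of the 6 well above background on a plucked array and 2 or 3 on an unplucked one. In IFE and total epidermis it was -1.37 to -0.77, with 1 or 2 of the 6 well above background. Every unplucked HFSC array thus lay above all other arrays in this sum. The summed level of 5 T cell markers was 2.79 to 3.97 in IFE and total epidermis and -0.36 to 1.67 in HFSCs. The part of other cell types in the differences given here was not tested. In such bulk samples, fewer cells of a type and less RNA per cell cannot be told apart.

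Ribosomal proteins are the protein parts of the 2 subunits of the cytosolic ribosome, which are put together in the nucleolus with help from assembly factors. Cells make them in balanced amounts, and their mRNAs are among the most abundant of any cell. Many of these mRNAs begin with a C followed by a run of pyrimidines, the 5′ terminal oligopyrimidine (TOP) tract, through which mTOR controls their translation. MYC proteins raise transcription of ribosomal protein genes and of assembly factors in growing cells. Hair follicle stem cells are mostly quiescent, and plucking the hair drives them to divide.

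The starts of some members are shown because the TOP tract is the feature this family is known for. A promoter entry of RefSeq (GRCm38.p6, 250 bases before to 50 bases after the start) was matched for 59 of the 80 genes, and 21 had none. At the annotated start, a C followed by at least 4 pyrimidines stood in 13 of the 59 genes (22.0%), against 813 of 27025 genes with an entry (3.01%). Only the annotated start base was looked at, so a run that begins a few bases away was not counted. The share is thus not that of genes with a TOP tract. The lines run from 30 bases before the start to 15 bases into the transcript, 5′ to 3′, with the pyrimidine run in capitals. Rpl14 lies at chr9:120571487-120571531 on the plus strand, Rpl15 at chr14:18270972-18271016 on the minus strand and Rpl35a at chr16:33056452-33056496 on the plus strand. Rpl38 lies at chr11:114668550-114668594 on the plus strand, Rps21 at chr2:180257349-180257393 on the plus strand and Rps27 at chr3:90213634-90213678 on the minus strand.
Rpl14: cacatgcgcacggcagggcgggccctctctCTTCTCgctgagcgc
Rpl15: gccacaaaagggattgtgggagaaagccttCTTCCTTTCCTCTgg
Rpl35a: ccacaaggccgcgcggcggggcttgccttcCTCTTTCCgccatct
Rpl38: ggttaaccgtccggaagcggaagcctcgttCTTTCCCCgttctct
Rps21: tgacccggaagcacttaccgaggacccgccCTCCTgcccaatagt
Rps27: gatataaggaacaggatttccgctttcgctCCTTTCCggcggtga

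The run was 13 bases long in Rpl15, 8 in Rpl35a and Rpl38, 7 in Rps27, 6 in Rpl14 and 5 in Rps21. Over the whole window and on either strand, CCGGAAG, the letters that ETS factors such as GABP bind, stood in 24 of the 59 genes (40.7%), against 9.93% of all genes with an entry. AAGATGGC, the core of a YY1 site, stood in 5 (8.47%) against 3.19%, and TATAAA in 6 (10.2%) against 15.7%. These matches describe the windows and are no evidence of binding. The median change on plucking was -0.02 for the 13 genes with a pyrimidine start, 0.01 for 44 tested genes with an entry and no such start, and -0.10 for 21 without an entry.

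Nearly all members were bright in every population. Of the 80 genes, 77 were well above background on all 12 arrays, and Rpl10l, a paralog of Rpl10 known for its use in the male germ line, was so on 11. Rpl3l and Rpl39l, paralogs known from striated muscle and testis, were well above background on no array, so they have only bounds here. Their measured values lay between -6.58 and -5.01. The remaining 78 genes were tested. Rps4l does not match the description as a protein gene: the array files annotate its transcript as a non-coding RNA. None of the 194 spots of members was saturated or an outlier. Members took 2.70% of the summed signal of all genes in young total epidermis, the lowest share, and 3.58% in young unplucked HFSCs, the highest.

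The median member level ran from 5.90 in young total epidermis to 6.48 in young unplucked HFSCs. Among the 77 members well above background throughout, the SD of a gene over the 12 arrays had a median of 0.271, against 0.544 over all 16024 such genes. Bright genes vary less on an array, and among genes with a mean level of at least 3 the medians were 0.268 for 75 members and 0.415 for all 3048. The SD was under 0.5 in 73 of the 77 members (94.8%) and in 42.2% of all 16024 genes. With a mean level of at least 3 it was so in 72 of the 75 members (96%) and in 67.4% of the 3048 genes. Rpl10, a late-joining protein of the large subunit that helps shape the peptidyl transferase centre, lay between 6.86 and 7.20 on all 12 arrays, with an SD of 0.115. Rps12, of the small subunit, had an SD of 0.116. At the other end stood Rps4l with an SD of 1.28, then Rpl9 with 0.582, Rpl10l with 0.578, Rpl35a with 0.558 and Rpl15 with 0.523. Levels of different genes rest on different probes and were not set against each other.

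**Figure D1:**
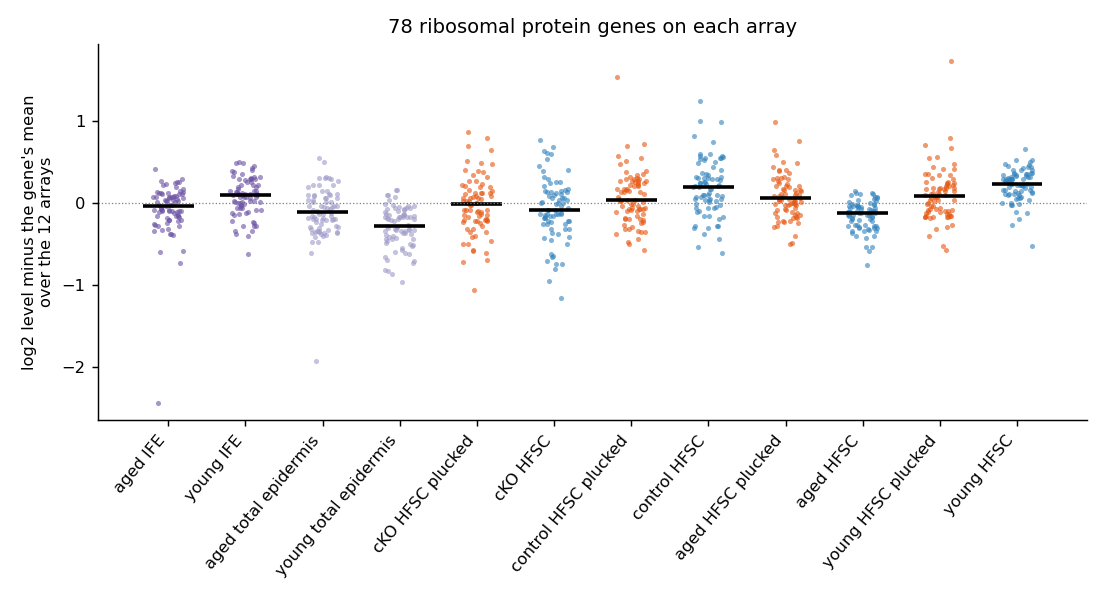
Level of each of the 78 tested members on each of the 12 arrays, as the log2 level minus the gene's own mean over the arrays, 1 point per gene and array, with a bar at the median (orange for plucked HFSCs, blue for unplucked HFSCs, purple for IFE and total epidermis). Most points lie close to 0 on every array, and the lone low points in aged IFE and aged total epidermis are Rps4l, which stood at -1.77 and -1.26 there.

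In plucked against unplucked HFSCs the ribosomal protein genes had a median change close to 0. All 12 cell cycle genes were positive, and 3 of them passed limma's test. The median change of the 78 tested members was -0.04, against -0.06 over all 25428 genes tested, with 33 positive and 45 negative. None of the 78 passed limma's test at a Benjamini-Hochberg adjusted p of 0.05, where 127 of all genes (0.499%) passed, 100 higher and 27 lower. At an unadjusted p under 0.05, 2 of the 78 were called, against 17.6% of all genes. The fit held 4 pairs of arrays, 1 for each kind of mouse, and the 95% interval of a member's change had a median width to either side of 0.602. Only 1 of the 78 changes was 2-fold or more in either direction (1.28%), against 20.3% of all genes. Large-subunit genes had a median of -0.05 and small-subunit genes of -0.03.

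Rps4l had the largest change. It resembles Rps4x, which codes for a small-subunit protein, and is itself annotated as non-coding. Its probe (mm9, chr6:148304043-148304102, plus strand) is shown because no other member had as large a change, without capitals since no part of it is singled out.
Rps4l probe: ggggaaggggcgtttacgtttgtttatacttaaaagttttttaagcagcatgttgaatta

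Rps4l stood at 2.40, 1.66, 2.21 and 1.46 in plucked young, aged, control and cKO HFSCs, against 0.73, 0.54, 0.97 and -0.49 in unplucked HFSCs of the same 4 kinds of mice. The groups did not overlap, and every plucked array lay above every unplucked one, as in 6.27% of all genes. The change was 1.49 ± 0.26 (SE) with an adjusted p of 0.089 by limma, which missed the threshold. It passed with normexp background correction and quantile normalization (1.23, adjusted p 0.0192) and when only genes well above background on every array of the fit were tested (1.49, adjusted p 0.0322). Without 1 of the 4 pairs in turn it was 1.34 to 1.62, with adjusted p-values of 0.194 to 0.251.

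Rps2, a small-subunit protein at the mRNA entry site, came next. It stood at 5.48, 5.53, 4.93 and 4.90 in plucked young, aged, control and cKO HFSCs, against 5.10, 4.01, 4.17 and 4.28 unplucked. All 4 pairs were positive, but the unplucked young array lay above the plucked control and cKO arrays. The change was 0.82 ± 0.29 (SE, 4 pairs, limma adjusted p 0.248), and 0.58 without the aged pair, where the difference was 1.51. A second probe of Rps2 gave 0.40.

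The other 6 of the 8 largest positive changes were smaller. Rpl24, a large-subunit protein that bridges the subunits, stood at 5.65, 4.87, 4.66 and 4.71 in plucked young, aged, control and cKO HFSCs, against 4.99, 4.46, 4.42 and 4.05 unplucked, a change of 0.49 ± 0.23 (SE, limma adjusted p 0.352). Every pair was positive and the groups overlapped. Rpl29, a small non-essential protein of the large subunit, changed by 0.47 ± 0.29 (adjusted p 0.462). Rps26, at the mRNA exit site, gave 0.42 ± 0.26 (0.454 by the same test), and Rpl15, a core protein of the large subunit, gave 0.35 ± 0.22 (0.467). Rps19, the gene most often mutated in human Diamond-Blackfan anaemia, and Rpl27 each gave 0.32, with SEs of 0.24 and 0.27 and adjusted p-values of 0.523 and 0.579 by limma.

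The largest negative changes lay closer to 0. Rps28, a small-subunit protein near the mRNA exit, was the only member with every plucked array below every unplucked one, as in 4.46% of all genes. It stood at 7.10, 7.26, 7.19 and 7.05 in plucked young, aged, control and cKO HFSCs, against 7.55, 7.33, 7.58 and 7.30 unplucked, a change of -0.29 ± 0.23 (SE, limma adjusted p 0.552). Rpl10l gave -0.47 ± 0.44 (adjusted p 0.615), but 0.26 within the slide of young and aged mice. Rps29, a zinc-binding small-subunit protein, and Rps24 both gave -0.35, with SEs of 0.23 and 0.24. Rpl9, part of the base of the large subunit's stalk, gave -0.30, as did Rps25, a small-subunit protein used by some viral mRNAs to recruit ribosomes. Rps27, a zinc finger protein, and Rps21 gave -0.29 each. The limma adjusted p-values of these 6 were 0.484 to 0.556.

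The sign of the change was the same in all 4 pairs in 28 of the 78 members, with 13 higher, against a background of 14% of all genes higher in 4 pairs, and 15 lower, against 15.3%. The other 50 had pairs of both signs. The pairs themselves differed in their median. It was -0.17 in the young pair, where 57 of 78 members were negative and the median of all genes was 0.00. In the aged pair the median was 0.19 with 56 positive, against -0.07 over all genes. It was -0.18 in the control pair, against -0.17 over all genes, and -0.01 in the cKO pair, against 0.04.

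**Figure D2:**
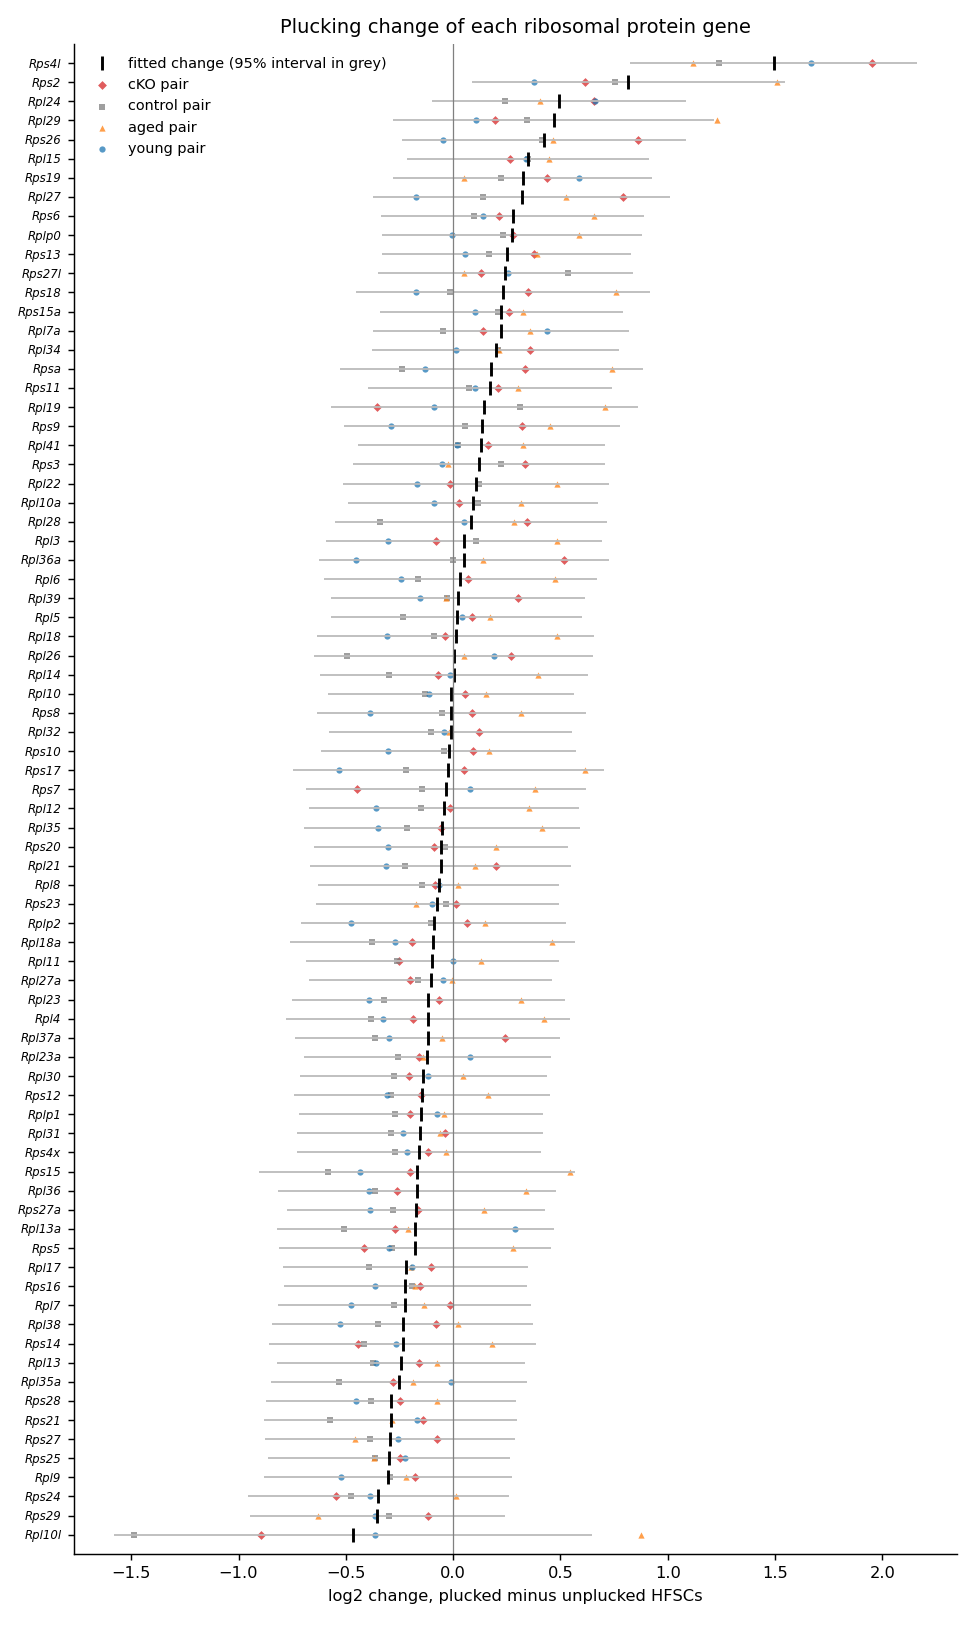
Change on plucking (log2, plucked minus unplucked HFSCs) of each of the 78 tested members, with coloured points for the cKO, control, aged and young pairs, a black tick for the fitted change and a grey line for its 95% interval, ordered by the fitted change. Rps4l stands apart at 1.49, Rps2 follows at 0.82, and all other fitted changes lie between -0.47 and 0.49.

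The genes of the stalk and Rpsa were tested in the same fit. Rplp0, the base of the stalk that recruits translation factors, stood at 5.76, 5.75, 5.99 and 5.97 in plucked young, aged, control and cKO HFSCs, against 5.76, 5.16, 5.76 and 5.69 unplucked, a difference of 0.27. Rplp1 and Rplp2, the acidic proteins that bind Rplp0 as dimers, differed by -0.15 and -0.09. Rpsa, a small-subunit protein also known as a laminin receptor, differed by 0.18, and by -0.01 without the aged pair. None of these 4 passed the test.

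Of the paralogs tested, Rps4l alone differed by 2-fold or more on its brightest probe. A dim second probe of Rpl10l, well above background on 2 arrays, gave -2.05. Rps27l, a p53 target close in sequence to Rps27, stood at 3.103, 2.15, 2.95 and 2.82 in plucked young, aged, control and cKO HFSCs, against 2.85, 2.10, 2.42 and 2.69 unplucked, a difference of 0.24. Rps4x, the X-linked parent of Rps4l, gave -0.16. Rpl3, which sits near the peptidyl transferase centre, gave 0.05, Rpl10 gave -0.01 and Rpl39, a short protein of the exit tunnel, gave 0.02. The genes Rpl7l and Rpl22l were not found under those names by the rule. Near copies limit what some probes can tell. The chosen probe of Rpl13, Rps27, Rps29 and Rps4x lies on another chromosome than the RefSeq gene, 4 of 80 members against 37 of 22336 genes (0.166%). A further limit is that 8 chosen probes list a RefSeq accession of another symbol as well, those of Rpl14, Rpl26, Rpl30, Rpl34, Rplp2, Rps15a, Rps26 and Rps27. Fau and Rack1, ribosomal protein genes that the naming rule does not take in, gave -0.13 and 0.24.

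Lists of ribosome biogenesis genes, of mitochondrial ribosomal protein genes and of other genes with TOP mRNAs had higher medians than the members. Of 50 tested ribosome biogenesis genes 41 were positive, with a median of 0.59, and none passed, where 0.499% of all genes did. At an unadjusted p under 0.05, 15 were higher and 1 lower, where 17.6% of all genes were called in either direction. Lyar, a nucleolar growth regulator, had the largest change, 2.60 ± 0.90 (SE, limma adjusted p 0.241), and Sbds, which helps release the factor Eif6 from the large subunit, the smallest, -0.88 ± 0.29 (adjusted p 0.226). Of 78 tested mitochondrial ribosomal protein genes 73 were positive, with a median of 0.55, and none passed. At an unadjusted p under 0.05, 25 were called, against the same 17.6% of all genes. Mrps27 had the largest change of that list at 2.90 ± 0.83 (adjusted p 0.184) and Mrpl35 the smallest at -0.66 ± 0.84 (0.710 by limma). The other genes with TOP mRNAs, translation factors among them, had a median of 0.20 over 15 genes. They ran from Hnrnpa1 with 1.11 ± 0.23 (adjusted p 0.113) to Tpt1 with -0.41 ± 0.24 (0.434 by limma).

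Among 18 regulators of growth and ribosome production, 1 passed, where 0.499% of all genes did. Mycn, a MYC family transcription factor, rose by 2.70 ± 0.22 (SE, limma adjusted p 0.045, 4 pairs). Tsc2, an inhibitor of mTOR signalling, had the smallest change of that list, -2.14 ± 0.28 (adjusted p 0.0586), and Myc itself gave -1.13 ± 0.36 (0.217 by the same test). All 12 cell cycle genes were positive, with a median of 3.36. Of these, Bub1, Mki67 and Tpx2 passed, at 5.46 ± 0.57, 3.81 ± 0.40 and 5.78 ± 0.62 (limma adjusted p 0.045 each). Ccnb1 gave 5.79 ± 0.95 (adjusted p 0.078), the largest change of the list, and Pcna 1.72 ± 0.34 (0.108), the smallest. The summed level of the 12 genes was 6.08 to 7.12 in plucked HFSCs and 3.64 to 5.27 in unplucked HFSCs.

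**Figure D3:**
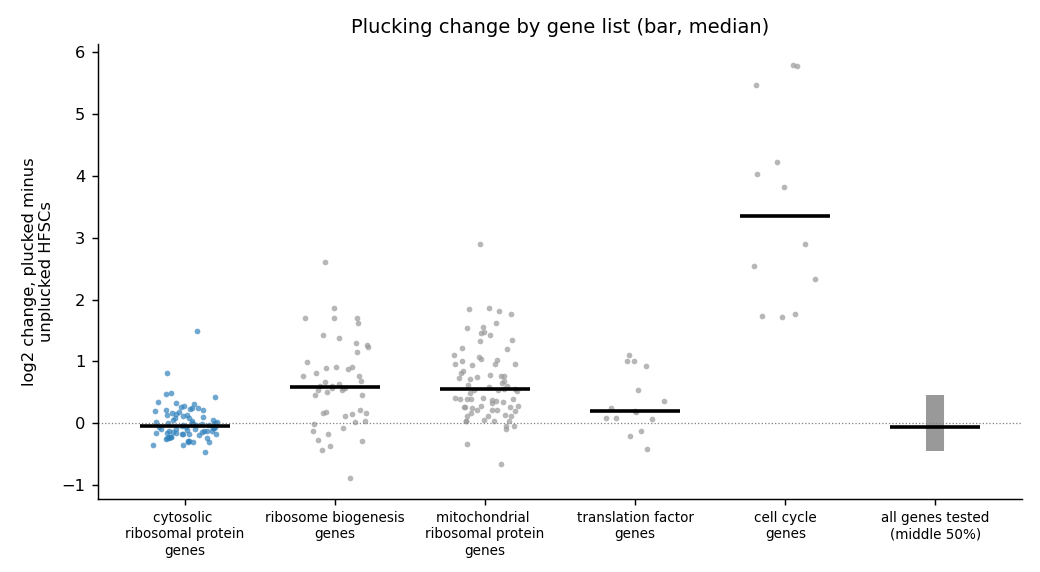
Change on plucking (log2, plucked minus unplucked HFSCs, fitted over 4 pairs) of the tested genes of the ribosomal protein list and of 4 other lists, 1 point per gene, with a bar at each median, and the middle 50% of all genes tested at the right. The ribosomal protein median is -0.04, against 0.59 for biogenesis genes, 0.55 for mitochondrial ribosomal proteins and 3.36 for cell cycle genes. The list marked translation factor genes is that of other genes with TOP mRNAs.

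A probe of Rps24 that was not its brightest behaved unlike the others, and it was singled out after its values had been seen. The Rps24 gene, which codes for a small-subunit protein that is mutated in some patients with Diamond-Blackfan anaemia, makes transcripts that differ at the end of the coding part through small exons that are kept or skipped. The array files list transcript variant 1 as the only curated RefSeq mRNA of this probe, while another pair of Rps24 probes lists 3 variants each. The probes are shown because the values differ between them. The variant 1 probe spans 2321 bases of the genome (mm9, chr14:25312695-25315015, plus strand), so it crosses at least 1 exon junction, and capitals mark the TGA that ends the reading frame in its first 50 bases. The shared probe lies upstream at chr14:25311190-25312666, and the brightest probe lies downstream at chr14:25315021-25315080, with its first 30 bases shown.
Rps24 variant 1 probe: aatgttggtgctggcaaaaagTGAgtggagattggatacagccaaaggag
Rps24 shared probe: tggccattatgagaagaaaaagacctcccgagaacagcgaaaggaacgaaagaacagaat
Rps24 brightest probe: ttgatgttttgctgtgatgtgcagatttct

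The variant 1 probe stood at 5.16, 4.77, 4.77 and 4.41 in plucked young, aged, control and cKO HFSCs, against 6.76, 6.64, 7.15 and 6.84 in unplucked HFSCs. It stood at 4.43 and 4.80 in aged and young IFE and at 4.83 and 4.27 in aged and young total epidermis. All 4 unplucked HFSC arrays thus lay above all 8 others, with no overlap. The same order was found in 2 of 183 member probes (1.09%), against 1.75% of 40570 probes. The brightest probe of Rps24 showed no such gap: it stood at 7.49, 7.63, 7.42 and 7.17 in plucked young, aged, control and cKO HFSCs, against 7.88, 7.61, 7.90 and 7.71 unplucked.

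With every probe as its own feature, the variant 1 probe was 4.20-fold lower in plucked than in unplucked HFSCs, a log2 change of -2.07 ± 0.29 (SE, limma adjusted p 0.0753 over 38675 probes). None of the 38675 probes passed (0%), while 6360 had an unadjusted p under 0.05. The variant 1 probe passed with normexp and quantile normalization (-2.03, adjusted p 0.0149) and among probes well above background on every array of the fit (-2.07, 0.0234 by limma). Without each pair in turn it was -2.23 to -1.95, with adjusted p-values of 0.181 to 0.250. The other 3 probes of Rps24 gave -0.35, -0.34 and -0.10. Against unplucked HFSCs of the young and aged mice, the variant 1 probe was 4.25-fold lower in IFE (-2.09 ± 0.36, limma adjusted p 0.0583, where 3.85% of probes passed). It was 4.44-fold lower in total epidermis (-2.15 ± 0.36, adjusted p 0.0591, where 3.08% passed). These comparisons share the unplucked young and aged HFSC arrays with each other and with the plucking fit.

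The other such probe belonged to Rpl22, an RNA-binding protein of the large subunit that mice can live without. It lies downstream of the brightest Rpl22 probe (mm9, chr4:151708012-151708071, plus strand), and both list 4 curated RefSeq transcripts, so it is not specific to a variant. It stood at 2.33, 2.28, 2.94 and 2.72 in plucked young, aged, control and cKO HFSCs, against 3.12, 3.00, 3.94 and 3.60 unplucked. Its change was -0.85 ± 0.25 (SE, limma adjusted p 0.207), against 0.11 for the brightest Rpl22 probe, and it passed under normexp and quantile normalization (-0.85, adjusted p 0.0373).

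Probes of a gene also disagreed elsewhere. Of 60 members with several probes, 37 had the same sign of the plucking change on all of them, with a median spread of 0.199. The spread was over 1 in 4 genes, Rpl10l, Rpl13a, Rps24 and Rpsa, and in Rpl13a and Rpsa the signs also differed. Rpl13a, a large-subunit protein also known for translational control of inflammatory mRNAs, gave -0.18 on its brightest probe and 1.08 and 1.07 on its others (limma adjusted p 0.167 and 0.176). Both passed under normexp and quantile normalization (adjusted p 0.0391 and 0.0408). A dim probe of Rpsa gave 1.39 ± 0.35 (adjusted p 0.169), and its other probes gave 0.18, -0.11 and 0.53. Over all 182 tested probes of members, 5 were higher and 2 lower at an unadjusted p under 0.05, against 16.4% of all probes.

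**Figure D4:**
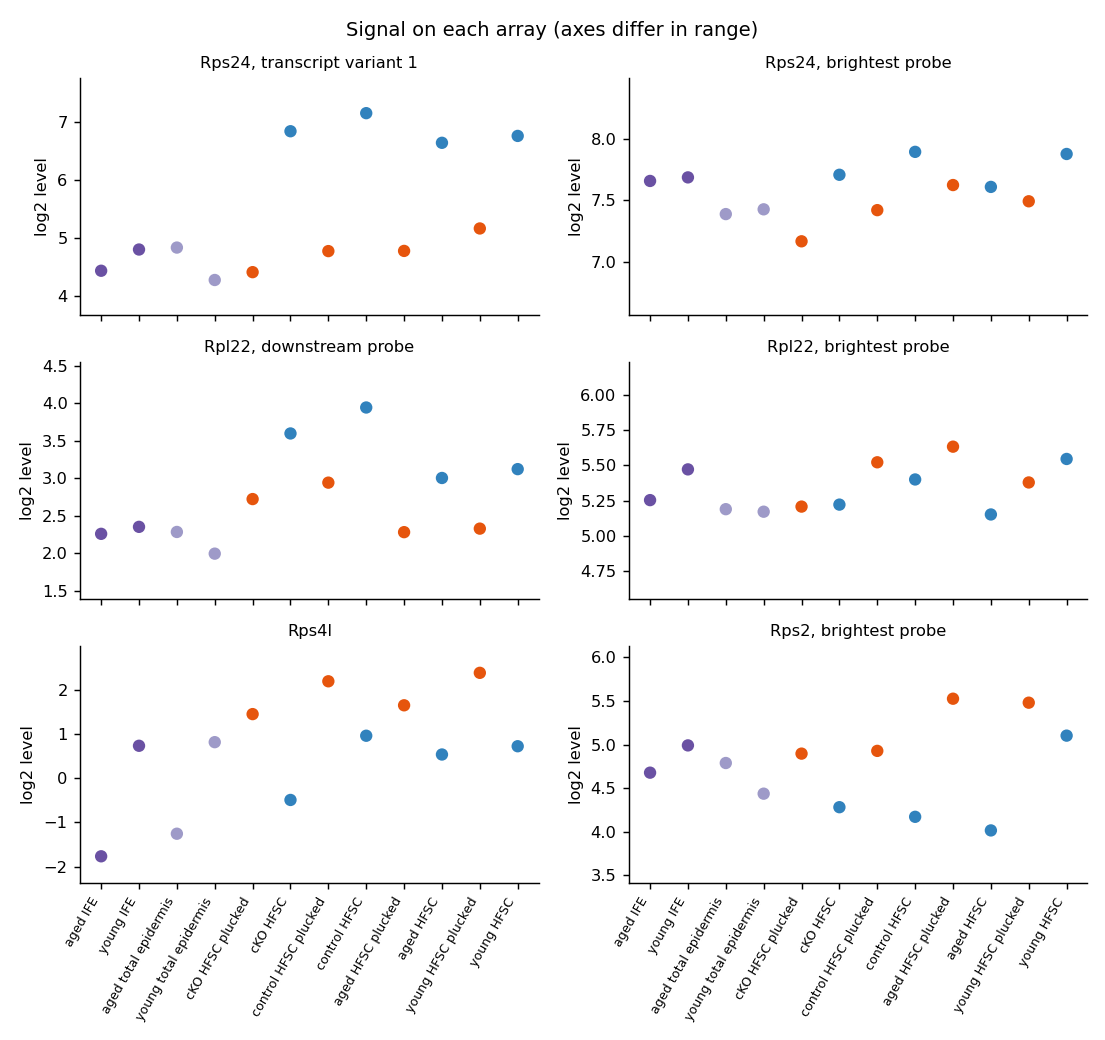
Level (log2 intensity relative to the array's 75th percentile) on each array of 2 probes of Rps24, 2 of Rpl22 and the brightest probes of Rps4l and Rps2, with orange for plucked HFSCs, blue for unplucked HFSCs and purple for IFE and total epidermis, and axes that differ in range. The variant 1 probe of Rps24 lies at 6.64 to 7.15 in the 4 unplucked HFSC arrays and at 4.27 to 5.16 on the other 8, while the brightest probe stays between 7.17 and 7.90.

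In aged against young HFSCs the members were lower on balance in unplucked cells and level in plucked cells. The fit of both pairs gave a median of -0.21, with 67 of 78 members negative, against 0.03 over all genes. The median was -0.45 with 77 negative when arrays were scaled to their medians (-0.22 over all genes) and -0.092 with 49 negative when they were scaled to the 75th percentile of probes above background throughout (0.14 over all genes). None of the 78 passed limma's test, as none of all 25428 genes did (0%), with 1231 genes and 0 members at an unadjusted p under 0.05. The median was 0.03 in the plucked pair, with 40 of 78 positive, and -0.37 in the unplucked pair, with 73 of 78 negative. With 1 array per group each pair is a difference between 2 arrays, and the unplucked young HFSC array has the highest median level of all 12.

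The largest negative change was that of Rps27l. It stood at 2.15 and 2.10 in plucked and unplucked aged HFSCs, against 3.103 and 2.85 in plucked and unplucked young HFSCs, a change of -0.85 ± 0.33 (SE, limma adjusted p 0.932). Both pairs were negative. Rpl24 gave -0.65 and Rpl21, a large-subunit protein, -0.58 (0.03 as the mean over its probes). Rps3, at the mRNA entry channel, gave 0.44, Rpl9 0.14 and Rps4x 0.13, and the signs of Rpl9 and Rps4x turned when arrays were scaled to their medians (-0.11 each). The median was -0.28 over the biogenesis genes and -0.31 over the mitochondrial ribosomal protein genes in the same fit.

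In cKO against control HFSCs the members had a median of -0.18, with 69 of 78 negative, against -0.01 over all genes. None of the 78 passed limma's test, and none of all genes did (0%), with 1645 genes at an unadjusted p under 0.05. The median was -0.11 in the plucked pair with 59 negative, against 0.03 over all genes. In the unplucked pair it was -0.25 with 70 negative, against -0.13 over all genes. With arrays scaled to their medians the median was -0.30 for the members, 75 of them negative, and -0.14 for all genes. It was -0.10 with 62 negative with the percentile of probes above background throughout, and -0.11 with 64 negative with normexp and quantile normalization.

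Rps4l again had one of the largest changes. It stood at 1.46 and -0.49 in plucked and unplucked cKO HFSCs, against 2.21 and 0.97 in plucked and unplucked control HFSCs, a change of -1.10 ± 0.37 (SE, limma adjusted p 0.734). It was lower in the cKO sample of both pairs. Rpl10l gave -1.11 ± 0.62 (adjusted p 0.815) and turned to 0.30 as the mean over its probes, and Rpl27 gave -0.52. In the other direction Rpl19, a large-subunit protein, gave 0.24, Rps3 0.20 and Rpl15 0.19.

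The tamoxifen-treated controls and the young mice lay on different slides, so a control against young difference and one of slide, tamoxifen or age (12 and 8 weeks) cannot be told apart. The members had a median of 0.01, against 0.02 over all genes, and none of the 78 or of all genes passed limma's test (0%), with 2222 genes at an unadjusted p under 0.05. The members spread to both sides, with quartiles of -0.40 and 0.24. Across 77 members, the differences of the plucked pair and of the unplucked pair had an r of 0.83 and a rho of 0.82, and 59 had the same sign. Over all 16024 genes the r was 0.23, and over the 3048 bright ones 0.46. Each point shares its probe and slide between the pairs. Within slides, the same r was 0.42 for cKO against control over the members (rho 0.21, 58 of the same sign), against -0.01 over all genes. For aged against young it was 0.05 over the members and 0.15 over all genes.

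Rpl9 had the largest difference. It stood at 7.51 and 7.81 in plucked and unplucked control HFSCs, against 6.30 and 6.82 in plucked and unplucked young HFSCs, a change of 1.10 ± 0.32 (SE, limma adjusted p 0.570). The cKO arrays, on the slide of the controls, stood at 7.33 and 7.51, and the aged arrays, on the slide of the young mice, at 6.59 and 6.81. Rps4x gave 0.98 and Rpl35a, a large-subunit protein, 0.86. Rpl21 gave -0.89, Rpl14 -0.85 and Rpl24 -0.78. These are values of the brightest probes. A second probe of Rps4x, on chromosome X, gave 0.04. Other probes gave 1.06 and -0.45 for Rpl21, 0.16 and -0.73 for Rpl14, and -0.77 for Rpl24. The second probes of Rpl9 and Rpl35a gave 0.82 and 0.33. Of 60 members with several probes, 30 had the same sign of this difference on all of them.

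With all 4 HFSC arrays of a slide against the 4 of the other and plucking as a term, none of the 78 members passed (0 of 25428 genes, 0%, limma, 14.4% at an unadjusted p under 0.05). This comparison was chosen after the values had been seen. In 10 members every array of the control and cKO slide lay above every array of the young and aged slide, against 4.3% of all genes, and in 7 every one lay below, against 3.83%. Rps4x stood at 6.97 to 7.30 on the control and cKO slide, against 6.08 to 6.34 on the young and aged slide. Rpl14 stood at 5.30 to 5.74, against 5.99 to 6.45, and Rpl41, the smallest ribosomal protein, at 9.08 to 9.24, against 8.20 to 8.55. Plucking, aged against young and cKO against control were all compared within slides.

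**Figure D5:**
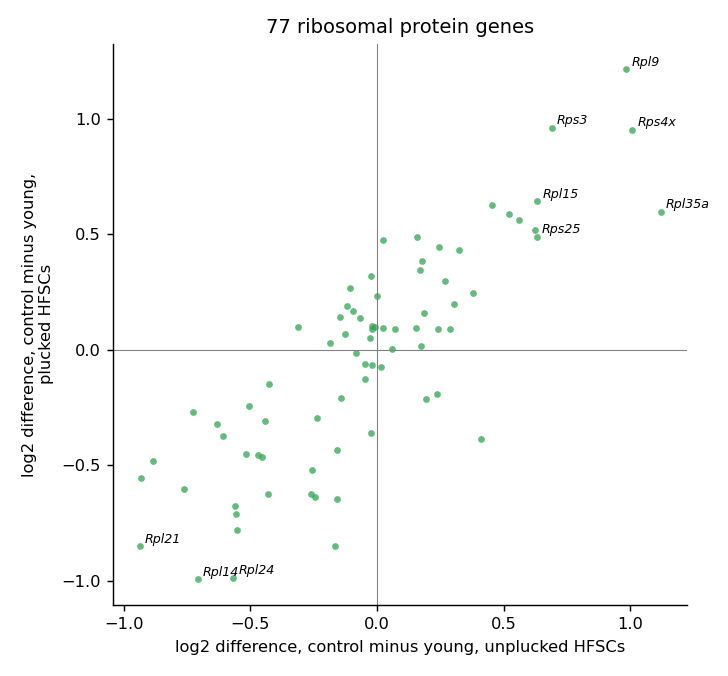
Control minus young difference (log2) of each of 77 members, in plucked HFSCs on the vertical axis and in unplucked HFSCs on the horizontal axis, 1 point per gene. The points run along the diagonal with an r of 0.83, from Rpl21, Rpl14 and Rpl24 at the low end to Rpl9, Rps4x and Rpl35a at the high end.

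The response to plucking of the aged and cKO HFSCs minus that of the young and control HFSCs had a median of 0.23 over the members, with 71 of 78 positive, against 0.03 over all genes. None of the 78 or of all genes passed limma's test (0%, smallest adjusted p 0.999), with 1146 of 25428 genes at an unadjusted p under 0.05. The median was 0.42 after scaling to array medians and 0.02 with normexp and quantile normalization.

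In IFE against unplucked HFSCs the members had a median of 0.00, against 0.09 over all genes, with 38 positive and 40 negative. None of the 78 passed limma's test, where 4.75% of all genes passed. The aged pair had a median of 0.10 with 51 positive, and the young pair one of -0.15 with 59 negative. Rps20, a protein of the head of the small subunit, stood at 6.23 and 6.34 in aged and young IFE, against 7.08 and 7.30 in aged and young HFSCs. Both pairs were lower in IFE, and the change was -0.91 ± 0.27 (SE, limma adjusted p 0.167). Rps4l gave -1.15 ± 0.63 (adjusted p 0.398), all of it in the aged pair, since the young pair differed by 0.01. Rpl7, a large-subunit protein, gave -0.44, while Rps19 gave 0.47, Rpl24 0.40 and Rpl7a, of the same subunit, 0.34.

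In total epidermis against unplucked HFSCs the median was -0.21, with 65 of 78 negative, against 0.07 over all genes, and none of the 78 passed where 3.89% of all genes did. The young pair had a median of -0.50 with 76 negative, against 0.12 over all genes, and the aged pair one of 0.04 with 44 positive. The median of both pairs was -0.40 with 74 negative with median scaling and -0.10 with 53 negative with the percentile of probes above background throughout. It was -0.091 with 52 negative with normexp and quantile normalization. Rps4l gave -0.85, again from the aged pair, with 0.09 in the young pair. Rpl38, a large-subunit protein known in mice for its part in translating Hox mRNAs, gave -0.78 ± 0.29 (SE, limma adjusted p 0.239), and Rpl18 gave -0.73. Rpl24 gave 0.41, Rps19 0.30 and Rps3 0.27. The comparisons of IFE and of total epidermis share the HFSC arrays.

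In aged against young IFE and total epidermis, Rps4l differed most. It stood at -1.77 and -1.26 in aged IFE and total epidermis, against 0.74 and 0.82 in young IFE and total epidermis. The change was -2.30 ± 0.26 (SE, limma adjusted p 0.588), with none of the members or of all 22825 genes passing (0%) and 1485 genes at an unadjusted p under 0.05. The members had a median of 0.03 in this fit, against 0.05 over all genes. The IFE pair had a median of -0.12 with 62 negative and the total epidermis pair one of 0.19 with 68 positive. In HFSCs, aged against young, Rps4l differed by -0.74 in the plucked pair and by -0.19 in the unplucked pair.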

How the data were processed

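The scanner files deposited by the authors hold linear spot intensities of 1 Cy3-labelled sample per array. Per the file headers they were background-subtracted and detrended by Feature Extraction 10.7.3.1 of Agilent under protocol GE1_107_Sep09. Per the labels' protocols, RNA was purified with an RNeasy micro kit, amplified with Ovation Pico WTA V2 and labelled with a SureTag kit. The authors also deposited a table of log2 values, and how it was made is not given in the sources used here. It followed the scanner values after centring each probe on its median over the arrays (r of at least 0.9999), so its scale is log2 relative to the probe's median and its direction that of the intensities. Its column medians were -0.14, 0.02, -0.2 and -0.15 for plucked and 0.02, -0.01, -0.02 and 0.16 for unplucked young, aged, control and cKO HFSCs. They were -0.01 and 0.08 for aged and young IFE and 0.13 and -0.02 for aged and young total epidermis. It served as an alternative.

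Here, control spots and the 129 to 269 outlier spots of each array were dropped, and log2 processed intensities minus each array's 75th percentile were averaged over the spots of a probe. Tests used limma 3.58.1 in R 4.3.3 with the package data.table, version 1.17.8 (lmFit and eBayes, Benjamini-Hochberg over all genes tested), on genes with at least 2 arrays of a fit well above background. Plucking was fitted over 8 arrays with the kind of mouse as a term. Aged against young, cKO against control, control against young and the difference in plucking response came from the same 8 arrays, with plucking as a term. IFE and total epidermis against HFSCs used 6 unplucked arrays of young and aged mice with age as a term, and aged against young epidermis the 4 arrays of IFE and total epidermis. The plucking test was checked on simulated data with a common spread and planted changes larger than that of any member. That check does not show its power for small changes. Alternatives were median scaling, the 75th percentile of probes above background throughout, normexp (offset 50) with quantile normalization, the mean over probes, other filters, the slide, and each pair left out. Every probe as its own feature and the contrast of slides were added after seeing the data. The number of arrays limits the precision, and on slide 1 age coincides with the row and population with the column of the slide.

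The members, the lists and the tests were chosen with earlier results of these data known. Members are named by rule: the 8 largest changes in each direction for plucking, the 3 largest in the other comparisons, paralogs with their parents, stalk genes, genes whose probes disagree, and of each other list the genes past the threshold and the largest and smallest changes. Coordinates of probes are those of the array files (mm9), and promoters are RefSeq's (GRCm38.p6), as no mm9 genome was used here. No column of another series was present (0). Figures were drawn with matplotlib 3.10.9 and pandas 2.3.3 in Python 3.11.15.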

Additional observations from a re-analysis of the deposited data

How the results depend on the processing

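Over 62 named results of members and their probes and 21 settings, 687 values were recomputed. Of these 28 changed sign, 12 of them when a pair was left out, and the cause was not tested. Another 652 kept their direction and, where a p-value existed, their side of the threshold, and 7 passed only under the alternative. No named member or probe passed in the setting reported, so none could lose the threshold (0). Values from a single pair have no p-value and were judged by direction only. In plucking, the count of members passing was 1 with normexp and quantile normalization and 1 among genes well above background on every array of the fit, Rps4l in both, where 725 and 397 of all genes passed higher and lower in the first and 413 and 280 in the second. Of all genes 100 and 27 passed in the setting reported, 204 and 69 with the mean over probes, 403 and 201 with slide in place of the kind of mouse, 18 and 4 with no filter, and 0 without any pair or within a slide. The members' median in control against young was 0.20 with median scaling, -0.094 with the percentile of probes above background throughout, -0.13 with normexp and -0.0717 with the mean over probes, and -0.0253 to 0.0227 without a pair. That in cKO against control was -0.30 with median scaling, and that of the difference in plucking response 0.42 with median scaling and 0.0239 with normexp. Median scaling moved the median of all genes to -0.22 in aged against young, 0.21 in control against young and 0.22 in the difference in response, and left the members' median minus that of all genes as it was. In plucking, signs turned with normexp for Rpl10 (0.10) and Rpl3 (-0.0060), with the mean over probes for Rpl13a (0.66), Rplp1 (0.0901) and Rps25 (0.14), and within slide 1 for Rpl10 (0.0193), Rpl10l (0.26), Rpl13a (0.0387) and Rpl39 (-0.0922). Without a pair, Rpl10 was -0.0627 to 0.0312, Rplp2 -0.17 to 0.0375, Rpl3 -0.0928 to 0.17, Rpsa -0.0109 to 0.32 and Rpl39 -0.0707 to 0.0809. In aged against young, Rpl9 and Rps4x were -0.11 each with median scaling, Rpl21 was 0.0315 with the mean over probes, and Rpl9 -0.0168 to 0.29 without a pair. In cKO against control, Rpl10l was 0.30 and Rps3 -0.0017 with the mean over probes, and Rpl19 -0.0901 to 0.58 without a pair. In IFE against HFSCs, Rpl7a was -0.068 with the mean over probes and Rps4l -2.31 to 0.0103 without a pair. In total epidermis, Rps3 was -0.32 with the mean over probes, and without a pair Rpl24 was -0.13 to 0.95, Rps19 -0.13 to 0.72 and Rps4l -1.80 to 0.0925. No paired analysis was possible because every sample carries the replicate number 1, so a block by replicate number could not be formed. The pairs of plucked and unplucked arrays are by kind of mouse, and that term is in the plucking fit.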
